A study of Mus musculus with 6 samples.

Results

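Fgf15 and Fgf20 encode 2 secreted ligands of the fibroblast growth factor (FGF) family, and they moved in opposite directions in otocysts with 2 trapped copies of Chd7. An otocyst is the epithelial vesicle from which the inner ear forms. The pair was chosen by the authors' own calls, since each gene is in at least 1 of the 4 deposited lists of changed genes, which together hold 1167 distinct genes. The folds and adjusted p-values of both are therefore a description of what is listed and no independent test was made on them. Both members were found in the lists, and they make up 2 of the 3 FGF ligand genes listed.

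Polyadenylated RNA was sequenced from otocysts of B6129SF1/J mouse embryos at embryonic day 10.5, with 2 libraries for each of 3 genotypes. The wild type was Chd7+/+, the heterozygote Chd7Gt/+ with 1 copy of the Gt allele, and the homozygote Chd7Gt/Gt with 2 copies. Gt stands for a gene trap in mouse nomenclature. Chd7 encodes an ATP-dependent chromatin remodelling enzyme, and loss of 1 copy of the human gene causes CHARGE syndrome, in which the inner ear is malformed. The labels name no other allele or treatment and do not say whether a library held 1 or several embryos. For every gene the deposited lists hold its symbol, the log2 fold change of mutant over wild type and an adjusted p, so no value per library, spread or depth stands beside a fold. Separate embryos behind the paired libraries are not stated either, and the adjusted p-values may then measure technical spread alone. Without expression levels the labelled tissue could not be checked against its markers, and fewer cells of a type cannot be told apart from less RNA per cell. Chd7 itself was at 67.1% of wild type in heterozygotes (log2 -0.57) and at 22.4% in homozygotes (log2 -2.16) in the authors' deposited table.

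FGF ligands bind receptor tyrosine kinases at the cell surface and, through Ras and the kinase ERK, switch on transcription factors of the ETS group together with inhibitors that limit the signal. In the embryo the ear placode is induced by FGFs from the hindbrain and mesenchyme, and later FGFs shape the vesicle and its sensory patches. Fgf15 is the mouse counterpart of human FGF19. It belongs to the endocrine FGFs, which bind heparan sulfate weakly, and is made in the embryonic brain and neural tube, where it affects the balance of progenitor division and neuronal differentiation. Fgf20 belongs to the same subfamily as Fgf9 and Fgf16, acts on nearby cells, and is made in the prosensory domain of the cochlea, where mice lacking it have fewer outer hair cells and supporting cells.

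Fgf15 was higher in both mutants. In heterozygotes its level was 2.59-fold that of wild type (log2 1.37 with an adjusted p of 0.00129507 in the authors' deposited table). In homozygotes it was 14.2-fold (log2 3.83), and the adjusted p is written as 0 in the authors' deposited table. The homozygous log2 fold exceeded the heterozygous one by 2.45, a ratio of 5.48 between the folds, for which no error can be given and no test was made. Both folds were measured against the same 2 wild type libraries, so the 2 folds are not independent of each other.

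Within its lists Fgf15 stood near the top in homozygotes and lower in heterozygotes. It had the 12th largest of 416 folds among genes higher in homozygotes, and the 16th largest of 43 among genes higher in heterozygotes. By adjusted p it was 24th of 43 in heterozygotes and 1 of 24 genes tied at 0 in homozygotes, in the authors' deposited table. The median log2 fold of the genes listed as higher was 0.94 in heterozygotes and 1.31 in homozygotes, computed from the authors' deposited table. The Fgf15 fold lay above that median in both lists. The 11 genes above Fgf15 in the homozygous list were Xist, Adm, Hspa1a, Hspa1b, Bhlhe40, Slc2a3, Bhlhe41, Taar5, Klk1b22, 4930583H14Rik and Gm20199. The largest fold was that of Xist, the transcript that silences an X chromosome in females (log2 9.64 in the authors' deposited table). None of these 11 genes, Xist included, was listed in heterozygotes. Embryo sex is not in the labels, and whether the sexes differed between the genotypes or bear on the Fgf15 value was not tested.

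Fgf20 was lower in homozygotes and was not listed in heterozygotes. Its homozygous level was 6.15% of wild type (log2 -4.02 with an adjusted p of 0.000145346 in the authors' deposited table). This was the 6th largest of 669 folds among genes lower in homozygotes, against a median log2 fold of -1.35, while by adjusted p it was 158th in that list of the authors' deposited table. Not being listed in heterozygotes means only that the gene did not pass the authors' threshold or was not tested. The smallest absolute log2 fold among the lower heterozygous genes was 0.11 in the authors' deposited table, so the lists set no common limit on the fold that Fgf20 could have had there. Whether its fold differed between the genotypes was not tested.

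**Figure D1:**
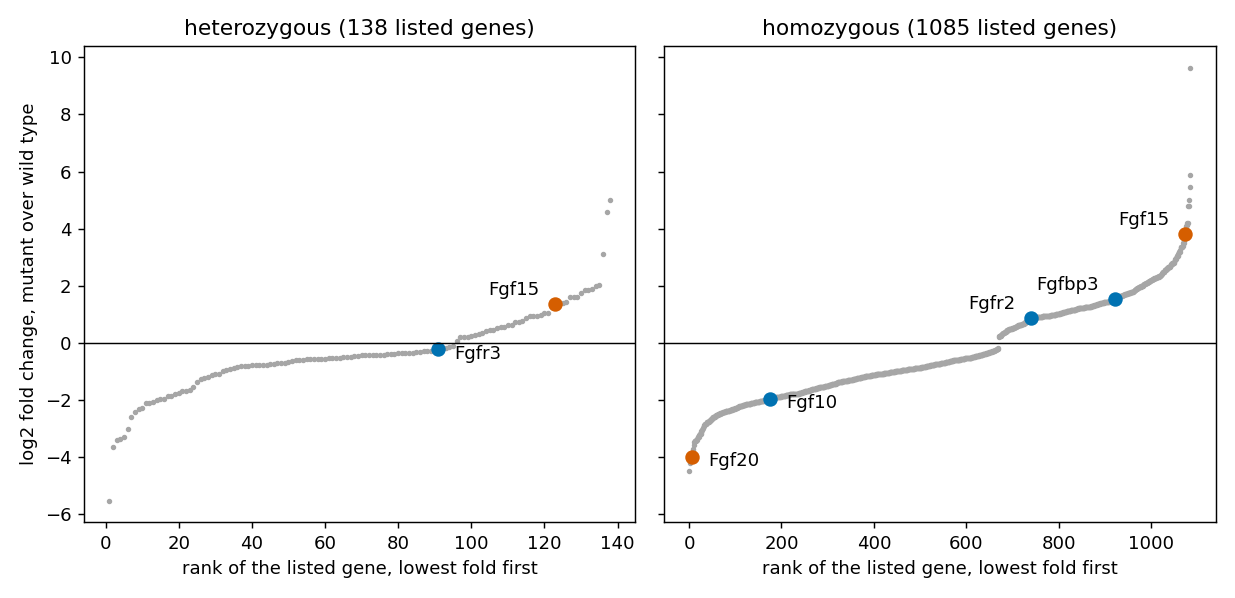
Log2 fold change of mutant over wild type (vertical axis) against rank, lowest fold first (horizontal axis), for all genes in the deposited lists of heterozygotes (left, 138 genes) and homozygotes (right, 1085 genes). Orange points are Fgf15 (1.37 and 3.83) and Fgf20 (-4.02, homozygotes), blue points are Fgfr3, Fgf10, Fgfr2 and Fgfbp3, and grey points are all other listed genes. Each point is 1 comparison and has no error bar.

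Among the other ligands, Fgf10 was the only one listed, out of 22 FGF ligand genes looked up in each comparison. Fgf10, which is needed for the semicircular canals and is made in the otic epithelium, stood at 25.7% of wild type in homozygotes (log2 -1.96 with an adjusted p of 0.00231553 in the authors' deposited table). Ligands listed in homozygotes thus numbered 1 higher and 2 lower of 22, against 1 higher and 0 lower in heterozygotes. As background, the homozygous lists hold 1.79% of the 21900 RefSeq protein-coding genes as higher and 2.96% as lower, and the heterozygous lists 0.183% as higher and 0.434% as lower. These totals stand in for the number of genes tested, for which the sources used here give no value. The same shares are the background for every list count that follows. Because Fgf15 and Fgf20 were chosen from the lists, nothing is read from the ligand counts. Their nearest relatives were not listed in either comparison: Fgf21 and Fgf23, the other endocrine ligands, and Fgf9 and Fgf16. Fgf3, which is made in the hindbrain and otic epithelium and acts with Fgf10 in ear formation, and Fgf8 were not listed either.

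Of 11 receptors and receptor partners, 2 were higher in homozygotes and 1 was lower in heterozygotes. Fgfr2, the receptor through which Fgf3 and Fgf10 act in the otic epithelium, was 1.81-fold higher in homozygotes (log2 0.86), with an adjusted p written as 0 in the authors' deposited table. Flrt3, a membrane protein that binds FGF receptors, was 1.72-fold higher in homozygotes (log2 0.79 with an adjusted p of 0.00722964 in the authors' deposited table). Fgfr3 was at 84.7% of wild type in heterozygotes (log2 -0.24 with an adjusted p of 0.000538534 in the authors' deposited table), and was not listed in homozygotes. Fgfr4 and its co-receptor Klb, which bind Fgf15 in the adult liver, and Fgfr1, the receptor on which Fgf20 acts in the cochlea, were not listed.

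Etv4, Etv5 and Spred3, which FGF signalling is known to induce or which restrain it, were lower in homozygotes. The feedback and ETS list had 0 higher and 3 lower of 15 in homozygotes, and 0 of 15 listed in heterozygotes. The ETS factors Etv5 and Etv4, which FGF induces in many tissues, fell in the authors' deposited table, Etv5 to 28.8% of wild type (log2 -1.79 with an adjusted p of 0.000169319) and Etv4 to 29.1% (log2 -1.78 with an adjusted p of 0.0123265). Spred3, of a family of inhibitors of Ras and ERK, was at 38.8% (log2 -1.37 with an adjusted p of 0.0423789 in the authors' deposited table). The Sprouty genes Spry1, Spry2, Spry3 and Spry4 and the ERK phosphatase gene Dusp6, further common outputs of FGF signalling, were not listed.

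Immediate early genes are induced by ERK but also by cell stress. Of 9 in that list, 7 were not listed and 2 were higher in homozygotes, Fos (log2 3.37) and Ier3 (log2 3.50) in the authors' deposited table, and none was listed in heterozygotes. Of 21 intracellular transducers, 2 were higher in homozygotes and none was listed in heterozygotes. They were Mapk3, which encodes the kinase ERK1 (log2 0.87 with an adjusted p of 0.0455683), and the adaptor gene Shc1 (log2 0.36 with an adjusted p of 0.0106574), in the authors' deposited table.

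Of 26 extracellular partners of FGFs, homozygotes had 2 listed as higher and 2 as lower, and none was listed in heterozygotes. Sdc4, a cell surface heparan sulfate proteoglycan, was 4.77-fold higher (log2 2.25) and Fgfbp3, which carries FGFs out of the matrix, was 2.86-fold higher (log2 1.52), in the authors' deposited table. Ndst3 (log2 -1.93) and Ndst1 (log2 -1.06), which sulfate the heparan chain that paracrine ligands such as Fgf20 need for receptor binding, were lower in the authors' deposited table. Over the 6 FGF lists together, 9 genes were higher and 7 lower of 104 in homozygotes, with a median log2 fold of 0.58 among those listed. All 1085 listed homozygous genes had 416 higher and 669 lower and a median log2 fold of -0.74. In heterozygotes 1 of the 104 was higher, Fgf15, and 1 was lower, Fgfr3. Fgf15 and Fgf20 are themselves in these counts, as are Fos (log2 3.37) and Ier3 (log2 3.50), genes of the group that cell stress also induces. The homozygous lists hold 1.79% of RefSeq protein-coding genes as higher and 2.96% as lower. For the heterozygous lists these shares are 0.183% and 0.434%. Since the lists were chosen with earlier results known, nothing is read from these counts or the median.

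**Figure D2:**
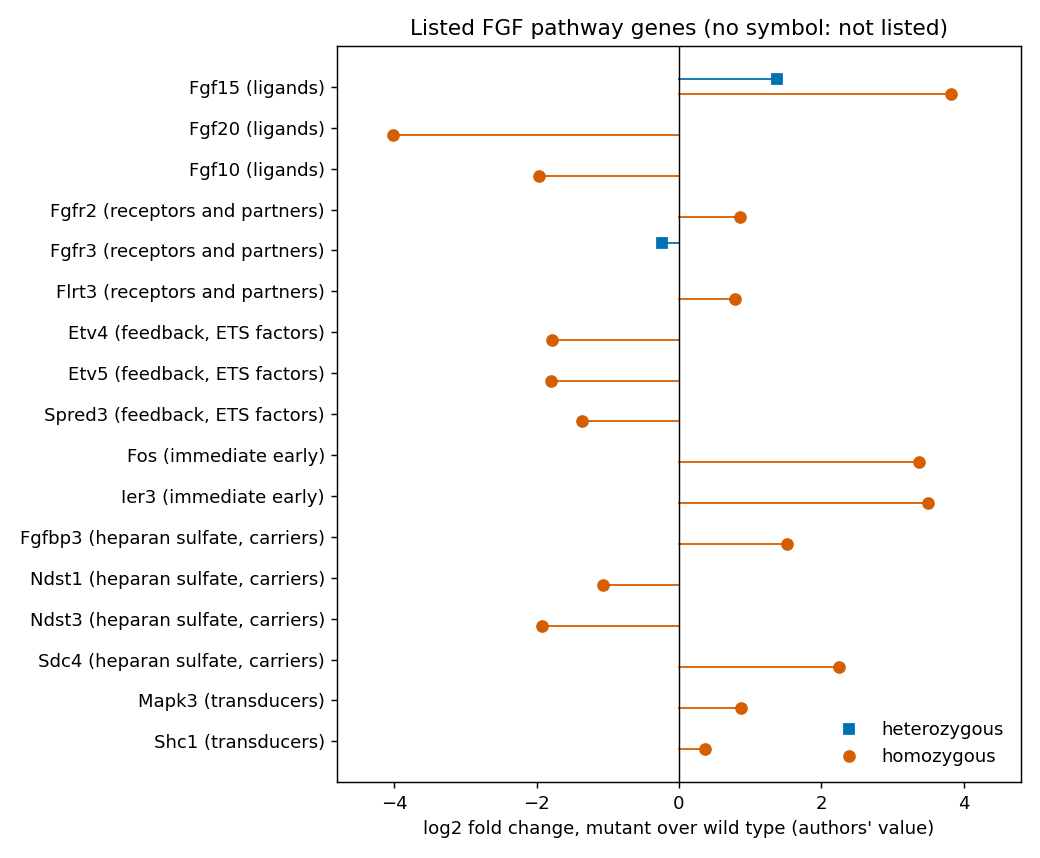
Log2 fold change of mutant over wild type (horizontal axis) for each listed gene of the 6 FGF lists (vertical axis, with the list in brackets). Blue squares are heterozygotes and orange circles homozygotes, and a missing symbol means that the gene was not listed. Fgf15 has the highest homozygous value (3.83) and Fgf20 the lowest (-4.02).

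Genes with known links to Fgf15 or Fgf20 were looked up beside them. Hedgehog signalling is known to switch on Fgf15 in the neural tube. Of 15 Hedgehog pathway genes, the ligand gene Shh alone was listed in heterozygotes, as lower (log2 -5.54 in the authors' deposited table), and none was listed in homozygotes. The heterozygous log2 folds were 1.37 for Fgf15 and -5.54 for Shh in the authors' deposited table. Whether Hedgehog signalling bears on the Fgf15 value was not tested. Notch signalling is known to act ahead of Fgf20 in the prosensory cochlea. Of 25 prosensory and Notch genes, 8 were lower and 0 higher in homozygotes (median log2 fold -1.39), and none was listed in heterozygotes. They comprised the receptor gene Notch1 (log2 -0.94), the ligand gene Dll3 (-1.65), the glycosyltransferase gene Lfng (-1.07) and the Notch target genes Hes5 (-1.41), Heyl (-1.70) and Nrarp (-1.56), in the authors' deposited table. The others were Hes6 (log2 -1.37), a bHLH gene of neuronal precursors, and the placodal gene Eya1 (-1.33), in the authors' deposited table. Sox2 and Jag1, which define the prosensory domain itself, were not listed. As background, 2.96% of RefSeq protein-coding genes were listed as lower in homozygotes and 1.79% as higher. Whether Notch signalling bears on the Fgf20 value in these otocysts was not tested.

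Markers of the tissues that such a dissection could hold were counted beside both genes, and most members of the hindbrain, otic and mesenchyme lists were not listed. The lists were chosen with earlier results of these data known. As background, the homozygous lists hold 1.79% of RefSeq protein-coding genes as higher and 2.96% as lower. For the heterozygous lists these shares are 0.183% and 0.434%. The 25 hindbrain and spinal cord markers, of a tissue that makes Fgf15, had 9 lower and 1 higher in heterozygotes, and 4 lower and 2 higher in homozygotes. Heterozygous log2 folds ran from -5.54 for Shh to 0.93 for Pax3, a gene of the dorsal neural tube and neural crest, in the authors' deposited table. Homozygous log2 folds ran from -3.39 for Gsx1 to 3.19 for Wnt1, a signal of the dorsal midline, in the authors' deposited table. The neural tube markers Sox1, Pax6 and Olig2 were not listed in either comparison. Of 23 otic epithelium markers, 6 were lower and 0 higher in homozygotes and none was listed in heterozygotes. Eya1 is among these 6 and was also counted with the prosensory and Notch genes above. Homozygous log2 folds ran from -4.20 for Otx1 to -1.16 for Tbx3 in the authors' deposited table. The otic markers Pax2, Pax8, Sox10 and Epcam were not listed. Periotic mesenchyme markers had 1 higher and 4 lower of 17 in heterozygotes and 2 higher and 4 lower in homozygotes, with log2 folds from -0.83 to 0.40 and from -4.00 to 1.61 by the authors' deposited table. Neuroblast and ganglion markers had 2 higher and 1 lower of 20 in heterozygotes and 14 lower in homozygotes, with log2 folds from -0.93 to 0.54 and from -4.13 to -1.48 by the authors' deposited table. How much of each tissue a library held is not given, and its part in the Fgf15 and Fgf20 values was not tested.

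**Figure D3:**
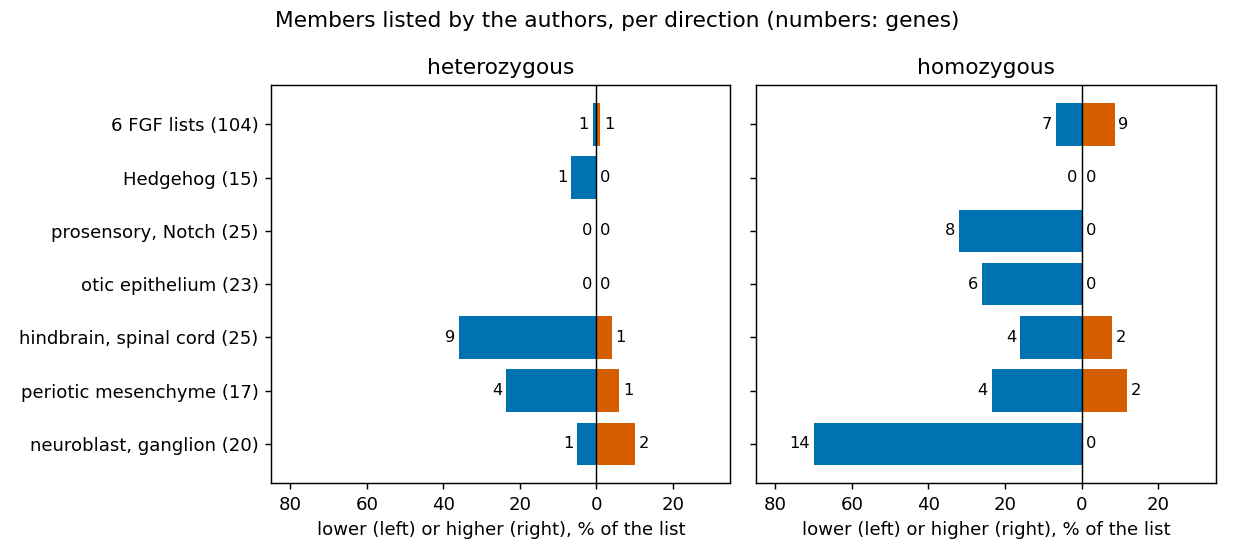
Share of each gene list that the authors listed as lower (blue, to the left) or higher (orange, to the right), in percent of the list, for heterozygotes (left panel) and homozygotes (right panel). Numbers beside the bars count genes, and the number after each list name is its size. The prosensory and Notch, otic epithelium and neuroblast lists have 8, 6 and 14 lower members in homozygotes and no higher ones. The lists overlap: Eya1 is counted in both the prosensory and Notch list and the otic epithelium list. Shh is counted in both the Hedgehog list and the hindbrain list. Of RefSeq protein-coding genes, the homozygous lists hold 2.96% as lower and 1.79% as higher.

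The genes whose listed values lay closest to those of Fgf15 were found by the distance between pairs of log2 folds, heterozygous and homozygous, over the 55 other genes listed in both comparisons. The 5 closest were Aldh1a3, Stab2, 2610507I01Rik, Dlk1 and Kbtbd11. Only 5 of the 56 genes listed in both comparisons, Fgf15 included, were higher in both. Aldh1a3, Stab2, 2610507I01Rik and Dlk1 are all the others, so the choice among like genes was narrow. Aldh1a3, which encodes a retinoic acid synthesising enzyme, was the nearest at a distance of 1.27, with 1.59 and 2.58 as its log2 folds in the authors' deposited table. The scavenger receptor gene Stab2 followed at 1.59 (log2 folds 1.44 and 2.23), and 2610507I01Rik lay at 2.03 (1.85 and 1.85), in the authors' deposited table. Dlk1 lay at 2.42 (log2 folds 0.40 and 1.61) in the authors' deposited table. In the authors' deposited table Kbtbd11, at 3.52, was lower in heterozygotes (log2 -0.79) but higher in homozygotes (1.06). Fgf15 had the highest homozygous log2 fold of all 56 genes listed in both comparisons, so each of these 5 necessarily had a lower one.

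**Figure D4:**
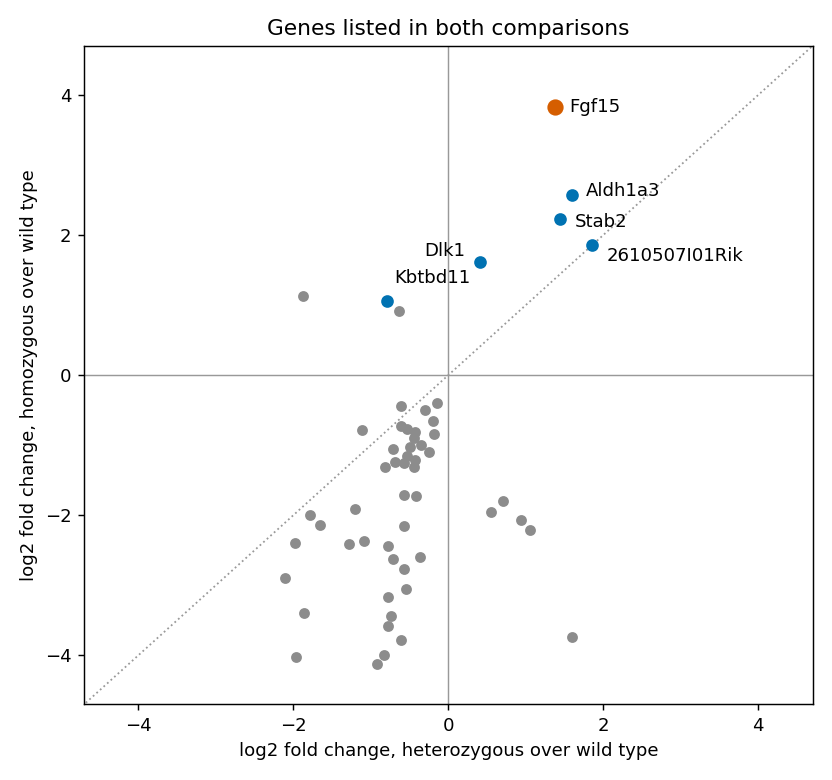
Log2 fold change in homozygotes (vertical axis) against heterozygotes (horizontal axis), both over wild type, for the 56 genes listed in both comparisons, which share the wild type libraries. Fgf15 (orange; 1.37 and 3.83) has the highest homozygous value, the 5 genes closest to it are blue, and the dotted line marks equal folds.

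For Fgf20 the likeness was the difference in homozygous log2 fold over the 620 other genes that were lower in homozygotes and not listed in heterozygotes. The 5 closest were the otoconial matrix gene Otol1 (log2 -4.15), the homeobox gene Otx1 (-4.20), the taste transducin gene Gnat3 (-4.50), the anchoring protein gene Akap6 (-3.49) and the synuclein gene Sncg (-3.45), in the authors' deposited table. Otol1 and Otx1 lay 0.12 and 0.18 from Fgf20 on the log2 scale. Lhx8 (log2 -4.03), Pou3f4 (-4.00) and Neurod4 (-4.13) lay closer in homozygotes, in the authors' deposited table. They were left out because they were also listed as lower in heterozygotes. The adjusted p-values of Otol1 and Otx1, 2.74e-08 and 1.13e-09 in the authors' deposited table, were smaller than that of Fgf20 at a like fold. Otx1, Otol1 and Sncg are also members of the marker lists above.

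Genes next to the pair in the genome were looked up in the order of the RefSeq annotation. Fgf15 lies on mouse chromosome 7 between Fgf4 and LTO1, with Fgf3 and the cyclin gene Ccnd1 close by. None of the 5 protein-coding genes on either side of it was listed in either comparison. Fgf20 lies on chromosome 8 between Msr1 and Micu3. Of its 10 neighbours, 1 was listed, the palmitoyltransferase gene Zdhhc2, as lower in homozygotes (log2 -1.46 with an adjusted p of 0.0443432 in the authors' deposited table).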

How the data were processed

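Per the labels, polyadenylated RNA from otocysts was sequenced in 2 libraries per genotype. The deposited tables are 4 gene lists whose log2 fold changes and adjusted p-values the authors computed. Every listed adjusted p lies under 0.05, and 24 of the higher and 17 of the lower homozygous genes have it written as 0. Bowtie2 2.0.6, DESeq 1.22.1 and build mm9 are named, without roles, per the submitters' processing notes. How reads were counted and filtered was not given in the sources used here, and depth per library is unknown.

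Folds and p-values were taken as deposited, with folds converted from log2. No test was run. Members and the 12 gene lists (225 distinct genes) were chosen with earlier results of these data known. Genes were named by rule: the members, listed members of the lists, Chd7, 5 neighbours on either side, and the 5 genes of closest pattern. Outside it, and chosen after the lists were seen, are the list members named as not listed, Lhx8, and the genes above Fgf15 in the homozygous list. Symbols were matched to RefSeq (GRCm38.p6), directly or through synonyms: 138 of 138 heterozygous, 1082 of 1085 homozygous and 224 of the 225 list genes. Since mm9 is another build, no coordinates are given. The per-library test planned for counts was not applicable. Alternatives were an adjusted p of at most 0.01, an absolute log2 fold of at least 1, direct symbols alone and likeness by rank. Python 3.11.15, pandas 2.3.3, numpy 2.4.6 and matplotlib 3.10.9 were used.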

Additional observations from a re-analysis of the deposited data

How the results depend on the processing

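Fgf15 in both genotypes and Fgf20 in homozygotes stayed past an adjusted p of at most 0.01 and past an absolute log2 fold of at least 1. With an adjusted p of at most 0.01, the 16 homozygous genes of the 6 FGF lists became 10, the 8 prosensory and Notch genes became 5 and the 5 heterozygous mesenchyme markers became 2. Of Etv4, Etv5 and Spred3, Etv5 alone stayed past that limit. With absolute log2 folds of at least 1, the 2 heterozygous FGF genes became 1, which is Fgf15, and the heterozygous mesenchyme and neuroblast markers fell from 5 and 3 to 0. Stricter limits can only remove genes. Direct symbols alone changed no count. Likeness by rank kept 4 of the 5 genes closest to Fgf15 and 5 of 5 for Fgf20. No paired analysis was possible because the deposited columns hold comparisons and carry no replicate, and for the same reason no library could be left out and no other test or filter run. Without depth or spread, a gene that is not listed cannot be told from one that was measured poorly.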
